A study of Mus musculus with 6 samples.

Results

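A set of 8 genes altered or studied in high-grade serous carcinoma, the tumour that can arise from the epithelium of the uterine tube, were followed here through the cells of the healthy mouse tube. They were chosen by name and are the repair genes Brca1 and Brca2, the transcription kinase Cdk12, the RAS brake Nf1, the lipid kinase subunit Pik3ca, the transcription factors Mecom and Myc, and the cyclin Ccne1. All 8 were found among the 50559 genes of the count tables. The tissue came from adult C57BL6 females in estrus, with no mutation, transgene or treatment named in the labels. Tubes of several mice were cut into a distal part, near the ovary, and a proximal part, near the uterus, and the parts of a region were combined, digested with enzymes and cleared of dead cells, so each library is a pool whose number of mice is not given in the sources used here. Droplet libraries that read the 3′ ends of transcripts (10x Genomics chemistry) were made from 3 distal pools (distal 1, 2 and 3) and 3 proximal pools (numbered 2, 3 and 4). The p-values of the class comparisons below measure how far the difference within a library varies over the 3 distal pools. Those of the region comparisons measure the spread of levels between the pools of a region.

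Brca1 and Brca2 proteins repair broken DNA by homologous recombination, Brca1 early at the break and Brca2 at a later step. Cdk12, with its cyclin Ccnk, phosphorylates RNA polymerase II and is needed for full transcription of long repair genes. Nf1 encodes neurofibromin, which switches RAS off, and Pik3ca encodes the catalytic p110-alpha subunit that makes the lipid PIP3. Myc drives ribosome and metabolic genes, Ccne1 encodes cyclin E1, the partner of Cdk2 at entry into S phase, and Mecom encodes zinc finger factors of the Prdm family that recruit corepressors. In the tubal epithelium, ciliated cells move the oocyte and non-ciliated cells, which include the secretory cells, make tubal fluid.

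The libraries held between 327 and 7371 barcodes and between 426707 and 32488145 unique transcript tags (UMIs). After filters 18415 cells remained. Clusters gave 3783 non-ciliated and 2342 ciliated epithelial cells, 7935 fibroblasts (the main stroma) and smaller groups of endothelium, muscle, pericytes and immune cells. A further 653 cells, of which 652 were distal, formed the epithelial cluster E6, led by Msln, Igfbp3 and Rspo1, and stayed apart from both classes. The naming rule set E6 apart because its 10 leading genes held 1 mesothelial marker, Msln, and 0 epithelial markers. The classes followed their markers: in distal libraries the epithelial markers summed to 5064 to 6874 CPM (the UMIs of a gene scaled to a sum of 1000000 UMIs) in non-ciliated cells and to 45.7 to 103 CPM in fibroblasts, and the ciliated markers to 8572 to 11090 CPM in ciliated cells. In distal E6 the epithelial markers summed to 5941 to 6574 CPM. Its mesothelial markers summed to 736 to 910 CPM, against 329 to 529 CPM in distal non-ciliated cells. The non-ciliated clusters missed the threshold for a secretory name and are called non-ciliated only. Across libraries, 186 of 19097 distinct barcodes occurred more than once.

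The libraries were not alike. Some clusters of the epithelium (E2, E3, E4, E7, E11, E14 and E16, the last led by haemoglobin genes and in neither class) held little Malat1, an RNA kept in the nucleus, at 73.4 to 679 CPM, with a median mitochondrial share of 0.12% to 0.71%. The other epithelial clusters held 5610 to 14920 CPM of Malat1, with a mitochondrial share of 3.87% to 8.58%. In non-ciliated cells Malat1 was 5559, 3211 and 6549 CPM in distal 1, 2 and 3. It was 330 CPM in proximal 2, and 16991 and 11916 CPM in proximal 3 and 4. Class differences of the members were therefore computed for all clusters and for the high-Malat1 clusters alone, a split chosen after the values had been seen. Distal fibroblasts held 32334, 29169 and 30144 CPM of Malat1. The high-Malat1 clusters held 7531 CPM in non-ciliated and 9071 CPM in ciliated cells over the pooled distal libraries. The split therefore does not level Malat1 between epithelium and fibroblasts. Counts for lists of related genes use all clusters, and the count in the high-Malat1 clusters follows where it moved by over 1.5 times. The part that Malat1-poor cells, or the Malat1 difference between epithelium and fibroblasts, play in any difference was not tested.

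Cell classes were compared within the distal libraries, where each library gave both sides of a difference, and a gene was called at an adjusted p under 0.05. Calls were common. In ciliated over non-ciliated cells 5 of 7 tested members were called, 4 higher and 1 lower, where 59.4% of all 16100 genes were called (31.2% higher, 28.2% lower). In non-ciliated cells over fibroblasts 6 of 6 were called, 1 higher and 5 lower, where 69.7% of 16527 genes were (34.3% higher, 35.4% lower). In ciliated cells over fibroblasts 5 of 7 were called, 2 higher and 3 lower, where 69.8% of 17178 genes were (34% higher, 35.9% lower). The 5 of 6 lower in non-ciliated cells than in fibroblasts and the 4 of 7 higher in ciliated than in non-ciliated cells were larger shares than those of all genes, from few members and with no test of that difference. The counts given below for lists of related genes stand beside the same shares. The classes were themselves found by clustering. The members and list genes were left out of the genes used for it, but they vary with genes that were used, so these p-values describe the clusters.

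Mecom separated the epithelium from the fibroblasts. In distal non-ciliated cells it stood at 394, 244 and 576 CPM in libraries 1, 2 and 3 (mean 405 ± 166, SD, n = 3). In distal ciliated cells it was 435, 386 and 457 CPM (426 ± 36.6, SD, n = 3). In distal fibroblasts it was 0.533, 0.999 and 3.73 CPM, from 4, 12 and 23 UMIs. All 3 libraries of each epithelial class lay far above all 3 of the fibroblasts, and the epithelial classes overlapped each other. The log2 difference was 8.04 ± 0.32 (SE) for non-ciliated cells over fibroblasts (edgeR quasi-likelihood, p adjusted over all genes by Benjamini-Hochberg: adjusted p = 1.09e-11). It was 7.79 ± 0.39 for ciliated cells over fibroblasts (adjusted p = 4.85e-07). Between the epithelial classes it was -0.10 ± 0.22 (adjusted p = 0.709) and turned to 0.12 without distal 3. A Mecom UMI was seen in 41.7% of distal non-ciliated cells (median 4080 UMIs per cell), 45.3% of ciliated cells (median 2427) and 0.557% of fibroblasts (median 3492). With every cell thinned to 1000 UMIs these shares became 18.95%, 26.0% and 0.181%, with 172, 449 and 196 shallower cells left out. The epithelial shares join unlike clusters, as 1983 non-ciliated and 921 ciliated distal cells lay in low-Malat1 clusters. Before thinning, the share was 6.72% to 6.99% in the low-Malat1 clusters E2, E3 and E7 and 93.3% to 97.0% in E1, E10 and E13. Among ciliated clusters it was 3.33% in E4 and 5.97% in E11, and 61.4% to 96.9% in E5, E8 and E9.

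The epithelium was not the only source of Mecom. Blood endothelial cells, which line the vessels, held 1002, 650 and 1160 CPM in distal 1, 2 and 3, in each library above both epithelial classes of that library. Pericytes held 23.1 CPM and smooth muscle 2.55 CPM over the pooled distal cells. Of the relative Prdm16 and the corepressors on the Mecom list (10 names, 9 tested), non-ciliated cells were higher than fibroblasts for 2, Prdm16 (0.95) and Hdac3 (0.65), and lower for none. Ciliated cells were lower than fibroblasts for 4, led by Ctbp1 (-0.72), Hdac1 (-0.66) and Hdac3 (-0.52), and lower than non-ciliated cells for Hdac3 (-1.01) and Hdac1 (-0.60). The list medians were 0.12, -0.09 and -0.26, against -0.06, -0.09 and 0.02 over all genes. These calls depended on the clusters used. In the high-Malat1 clusters non-ciliated cells were higher than fibroblasts for 3 (Prdm16, Ctbp2 and Ehmt2, but not Hdac3) and lower for 1, Ctbp1, and ciliated cells were higher for 1, Ctbp2, and lower for 3. Hdac1 was no longer called between the epithelial classes there.

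RefSeq places more than 1 transcription start at Mecom, and the promoter table (build GRCm38.p6, minus strand) holds a window for 2 of them. They are shown because Mecom has the widest range between classes of the 8 genes and because 3′ reads cannot tell which start a transcript used. Each is the 250 bases before the start, 5′ to 3′, with capitals marking a CCAAT box (CCAAT or its reverse complement) and a forkhead core (TGTTTA or its reverse complement).
Mecom, start of the longer span, chr3:30509760-30510009: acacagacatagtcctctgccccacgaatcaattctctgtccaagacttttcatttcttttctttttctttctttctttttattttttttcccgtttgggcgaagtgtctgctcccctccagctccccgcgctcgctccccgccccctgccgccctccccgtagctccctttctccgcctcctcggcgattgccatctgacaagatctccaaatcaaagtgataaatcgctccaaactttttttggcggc
Mecom, start of the shorter span, chr3:30013205-30013454: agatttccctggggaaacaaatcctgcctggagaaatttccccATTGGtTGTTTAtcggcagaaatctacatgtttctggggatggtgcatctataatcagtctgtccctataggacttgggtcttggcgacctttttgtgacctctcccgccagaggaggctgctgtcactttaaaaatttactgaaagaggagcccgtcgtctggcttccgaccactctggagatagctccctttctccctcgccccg
Only the second window holds either motif, with ATTGG beginning 207 and TGTTTA 201 bases before the start. Of 32851 promoter windows of this length, 33.8% hold CCAAT and 12% hold TGTTTA on either strand. The first window holds 2 GC boxes (GGGCGG, both on the other strand, as CCGCCC), a motif of 32.7% of the windows. E-boxes (CACGTG, 6.02%) and TATA boxes (TATAAA, 12.4%) were searched too and occur in neither.

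**Figure D1:**
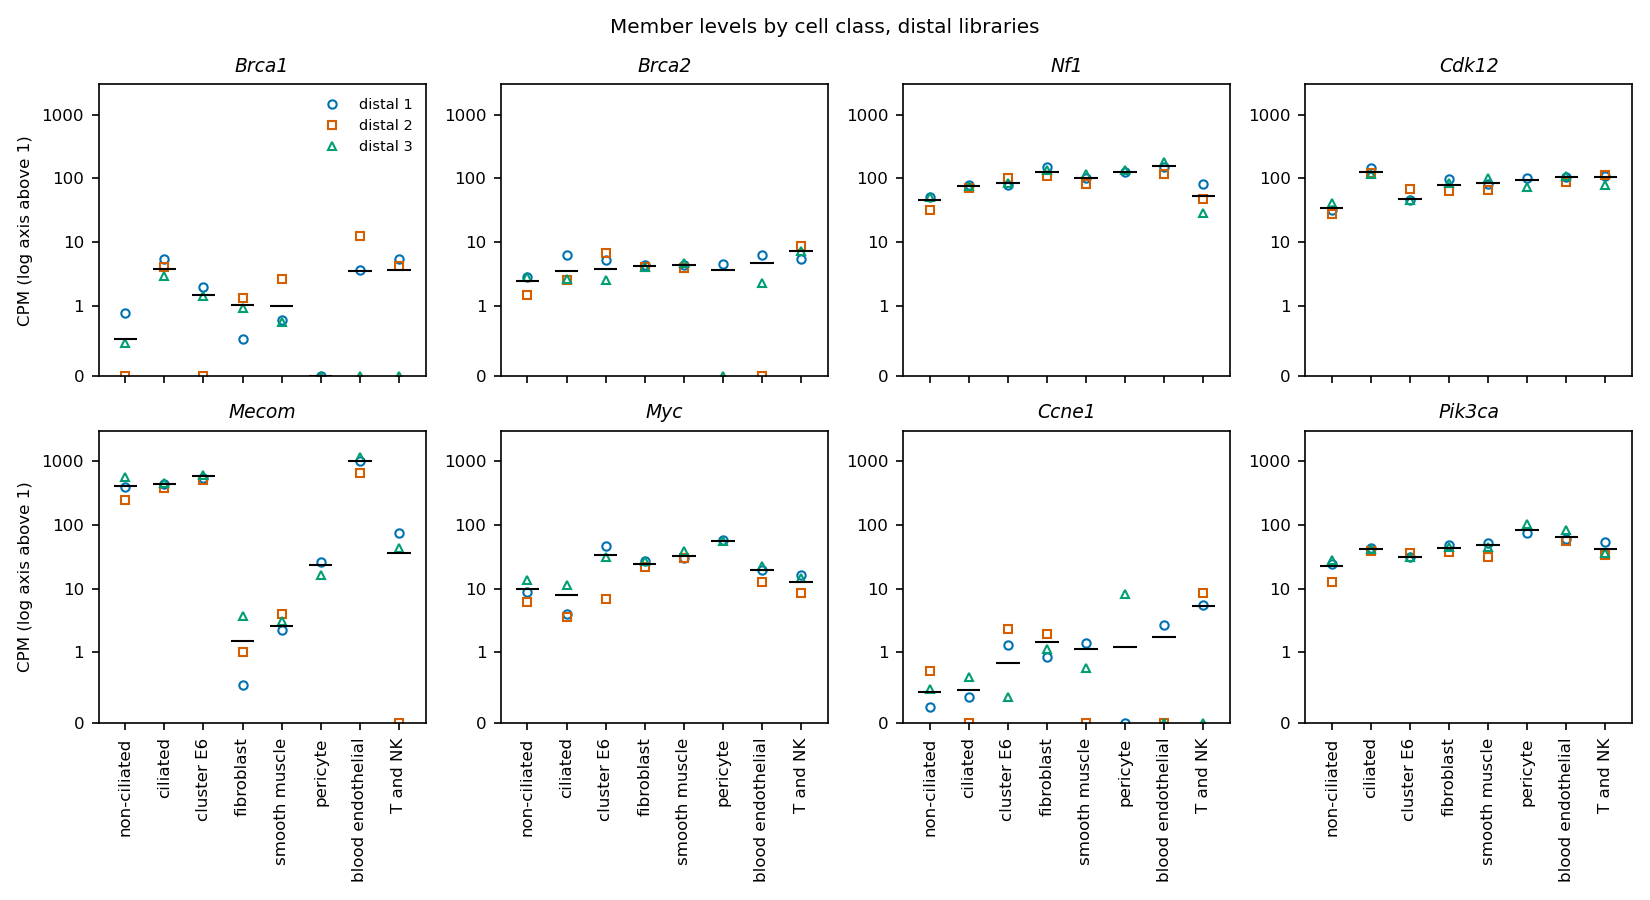
Levels of the 8 genes by cell class in the distal libraries, in CPM on an axis that is linear under 1 and logarithmic above. Each point is 1 library with at least 20 cells of the class and the black line is the pooled level; Mecom separates both epithelial classes (244 to 576 CPM) from fibroblasts (0.533 to 3.73 CPM), while each of the other members was counted in epithelium and in stroma.

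Within the epithelium Cdk12 was higher in ciliated cells. It stood at 145, 121 and 117 CPM in distal ciliated cells (128 ± 15.2, SD, n = 3), at 31.8, 28.0 and 41.5 CPM in non-ciliated cells (33.8 ± 6.95) and at 98.6, 64.2 and 84.9 CPM in fibroblasts (82.5 ± 17.3). Every ciliated library lay above every library of non-ciliated cells and fibroblasts, and every fibroblast library above every non-ciliated one. The log2 difference was 1.67 ± 0.20 for ciliated over non-ciliated cells (adjusted p = 1.79e-08) and -1.21 ± 0.18 for non-ciliated cells over fibroblasts (adjusted p = 2.28e-05). Ciliated cells over fibroblasts gave 0.33 ± 0.15 (adjusted p = 0.0718), which passed 0.05 with RLE scaling (0.39, adjusted p = 0.0365) and in the high-Malat1 clusters (0.45, adjusted p = 0.0279). A Cdk12 UMI was found in 32.4% of ciliated, 16.9% of non-ciliated and 23.5% of fibroblast cells, and in 12.7%, 3.27% and 7.52% once thinned to 1000 UMIs. Distal blood endothelial cells were near the ciliated shares, at 28.9% before and 13.6% after thinning, so the high level was not particular to ciliated cells.

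Among the genes around Cdk12 (13 genes of transcription kinases and elongation), ciliated cells were higher than non-ciliated cells for 5 and lower for 3 of 13 tested. The median log2 difference of the list was 0.26, against 0.02 over all genes. Ccnc, the cyclin of the Mediator kinases, was among the higher, at 95.7, 92.7 and 76.3 CPM in ciliated and 14.8, 17.9 and 16.5 CPM in non-ciliated cells (log2 2.17 ± 0.20, adjusted p = 6e-11). Polr2a, the largest subunit of RNA polymerase II, and Mnat1 of the TFIIH kinase were higher by 0.81 and 0.72. Ccnh (-1.37), Cdk19 (-0.65) and Cdk7 (-0.53) were lower in ciliated cells. Against fibroblasts, non-ciliated cells were higher for 3 genes, including Cdk19 (1.89) and the Cdk12 partner Ccnk (0.52), and lower for 5, including Cdk8 (-0.91), Ccnt2 (-0.73) and Mnat1 (-0.58). Ciliated cells were higher than fibroblasts for 2 (Ccnc 1.95, Cdk19 1.11) and lower for 4, among them Ccnh (-1.16), Ccnt2 (-0.50) and Cdk8 (-0.44). Only 2 were lower than in fibroblasts in each epithelial class in the high-Malat1 clusters, with the calls of Ccnt2 in non-ciliated and Cdk8 in ciliated cells lost.

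Brca1 was sparse, with 115 UMIs in 102 of the 18415 cells. In distal ciliated cells it stood at 5.46, 4.08 and 2.95 CPM, from 15, 8 and 18 UMIs. In non-ciliated cells it was 0.897, 0 and 0.477 CPM, from 8, 0 and 3 UMIs (0 of 5427226 UMIs in distal 2 allows up to 0.553 CPM, by a limit of 3 counts), and in fibroblasts 0.533, 1.33 and 0.974 CPM, from 4, 16 and 6 UMIs. All 3 ciliated libraries were above all libraries of these 2 classes. Smaller classes had Brca1 too. A UMI was seen in 3.18% of the 63 distal granulosa or luteal cells (median 7216 UMIs) and 1.06% of blood endothelial cells (median 2515). The share of ciliated cells was 1.76% (median 2427). The log2 difference was 2.79 ± 0.60 for ciliated over non-ciliated cells (adjusted p = 0.000177). Over fibroblasts it was 1.79 ± 0.49 (adjusted p = 0.0101), and without distal 1 it was 1.33 (adjusted p = 0.0646). Brca1 did not pass the filter on low counts in the comparison of non-ciliated cells with fibroblasts.

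Brca2 had 293 UMIs in 284 cells. It stood at 2.80, 1.47 and 2.86 CPM in distal non-ciliated cells, 6.18, 2.55 and 2.62 CPM in ciliated cells and 4.40, 4.08 and 4.06 CPM in fibroblasts. The ciliated libraries overlapped both other classes, and the non-ciliated libraries lay under the fibroblasts. Non-ciliated cells over fibroblasts gave -0.74 ± 0.32 (adjusted p = 0.0497), a call at the threshold that was lost under 9 alternatives (adjusted p from 0.0535 to 0.203 there), DESeq2 and the leaving out of any distal library among them. Ciliated cells differed by 0.34 from non-ciliated cells (adjusted p = 0.518) and by -0.52 from fibroblasts (adjusted p = 0.233).

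The list of other genes of homologous recombination and the Fanconi pathway had 41 genes, of which 31 were tested in each class comparison. In ciliated over non-ciliated cells 12 of the 31 were higher and 2 lower, where 31.2% and 28.2% of all genes were. The list median was 0.45, against 0.02 over all genes. Fanca, a core subunit of the Fanconi complex, was at 40.4, 38.2 and 27.2 CPM in ciliated cells and at 0, 0.369 and 0.636 CPM in non-ciliated cells (log2 6.53 ± 0.40, adjusted p = 2.7e-15). Chek2, the checkpoint kinase downstream of Atm, was at 99.7, 68.3 and 86.0 CPM in ciliated cells and 4.15, 3.32 and 5.25 CPM in non-ciliated cells (log2 4.07 ± 0.23, adjusted p = 3.02e-16). Rad51c was higher by 2.40, while Parp2 and Fancc were the 2 lower genes (-1.52 and -0.94).

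In non-ciliated cells over fibroblasts 5 of these genes were higher and 10 lower (median -0.11, all genes -0.06). Rad51b was at 572, 265 and 414 CPM in fibroblasts and at 23.7, 15.9 and 35.5 CPM in non-ciliated cells (log2 -3.99 ± 0.22, adjusted p = 3.38e-10). Fancf (-2.38) and Fancm (-1.33) were also lower, and Parp2 (1.43), Fancc (0.96) and Fancl (0.77) were higher. In ciliated cells over fibroblasts 9 were higher, led by Fanca (6.48), Chek2 (4.05) and the nuclease Dna2 (2.16), and 7 lower (median 0.16, all genes -0.09), led by Rad51b (-3.94), Fancm (-1.69) and Rad52 (-1.31).

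Nf1 was lower in epithelium than in stroma. Distal fibroblasts held 152, 111 and 135 CPM (mean 132 ± 20.5, SD, n = 3), ciliated cells 78.9, 71.8 and 75.8 CPM (75.5 ± 3.55) and non-ciliated cells 50.9, 32.1 and 50.7 CPM (44.6 ± 10.8). The 3 classes did not overlap. The log2 difference from fibroblasts was -1.51 ± 0.17 in non-ciliated cells (adjusted p = 1.37e-06) and -1.11 ± 0.14 in ciliated cells (adjusted p = 0.000159). Ciliated over non-ciliated cells gave 0.52 ± 0.19 (adjusted p = 0.0195), a call lost with DESeq2 (adjusted p = 0.0702), in the high-Malat1 clusters (0.33, adjusted p = 0.0591), without distal 1 or distal 2 and under 4 further alternatives. The RefSeq gene AU040972 lies within the span of Nf1 and had 2035 UMIs of its own against 7386 for Nf1. Whether reads were counted by strand is not given in the sources used here. Malat1 had the same class order as Nf1. It stood at 30328, 8012 and 5244 CPM in pooled distal fibroblasts, ciliated and non-ciliated cells, and its part was not tested.

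The RAS brakes and kinases around Nf1 (25 genes) went the same way against stroma: 15 of 25 tested were lower and 2 higher in non-ciliated cells than in fibroblasts (list median -0.53, all genes -0.06). In ciliated cells 13 of 24 were lower and 2 higher (median -0.44, all genes -0.09). Rasa3, another RAS GTPase activator, was lower in both (-3.38 and -2.99). Rras and Spred3 were lower in ciliated cells (-2.85 and -2.87) and Spred2 in non-ciliated cells (-2.17), while Hras was higher in both (1.10 and 0.77). Rasal2, a RAS GTPase activator of the same kind, was at 172, 137 and 133 CPM in ciliated cells against 29.4, 21.0 and 28.6 CPM in non-ciliated cells and 112, 79.2 and 99.5 CPM in fibroblasts. The ciliated libraries were all above the non-ciliated ones, by 2.22 ± 0.20 on the log2 scale (adjusted p = 3.85e-11). Between the epithelial classes 8 genes of the list were higher in ciliated cells, Braf (1.08) among them, and 4 lower, led by Rasal1 (-1.30), Map2k2 (-0.89) and Rras (-0.70).

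Genes known to rise with ERK signalling downstream of RAS (10 genes) went in both directions. In non-ciliated cells over fibroblasts 4 of 9 tested were higher (Ier3 1.95, Dusp5 1.90 and Phlda1 1.25 among them) and 5 lower (Etv4, Etv5 and Spry4 among them). Spry4, which holds back receptor signalling, was at 39.3, 34.5 and 39.8 CPM in fibroblasts and at 2.13, 2.58 and 1.91 CPM in non-ciliated cells (log2 -4.03 ± 0.23, adjusted p = 4.43e-10). Ciliated cells were lower than fibroblasts for 6 of 9 and higher for 1, Dusp5 (1.36). Within the epithelium 6 of 8 were lower in ciliated cells, led by Phlda1 (-1.99), Spry4 (-1.62) and Ier3 (-1.49), and Etv5 was higher (2.27). Etv5 did not pass the filter in the high-Malat1 clusters, where 7 of 7 tested were lower. The medians of the list were -1.97, -2.68 and -0.88 in these 3 comparisons.

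Pik3ca followed the same order as Nf1 with smaller steps. It stood at 47.8, 38.2 and 45.5 CPM in distal fibroblasts (43.8 ± 5.01, SD, n = 3), 42.9, 38.2 and 42.4 CPM in ciliated cells (41.2 ± 2.58) and 24.7, 12.9 and 28.1 CPM in non-ciliated cells (21.9 ± 7.99). Non-ciliated libraries were all under the others, and ciliated libraries overlapped fibroblasts. The log2 difference was -0.97 ± 0.19 for non-ciliated cells over fibroblasts (adjusted p = 0.000377). Ciliated over non-ciliated cells gave 0.69 ± 0.21 (adjusted p = 0.00489), and 0.45 without distal 2 (adjusted p = 0.0979). Ciliated cells over fibroblasts gave -0.40 ± 0.14 (adjusted p = 0.0308), lost with DESeq2 (adjusted p = 0.229), in the high-Malat1 clusters (adjusted p = 0.0957), without any 1 distal library and under 2 further alternatives. Pericytes held the highest pooled distal level of the stromal classes, 82.6 CPM.

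Of the 23 genes of the PI3K pathway list, non-ciliated cells were higher than fibroblasts for 6 and lower for 11 of 23 tested, and ciliated cells were higher for 3 and lower for 7 of 22 (medians -0.36 and -0.21). In the high-Malat1 clusters the counts for non-ciliated cells were even, 7 higher and 7 lower (median -0.14). Pik3r1, the main regulatory subunit, was at 330, 217 and 304 CPM in fibroblasts, 19.3, 21.4 and 39.0 CPM in ciliated cells and 40.7, 32.1 and 53.9 CPM in non-ciliated cells. Its difference from fibroblasts was -2.68 ± 0.18 in non-ciliated cells (adjusted p = 3.66e-09) and -3.74 ± 0.25 in ciliated cells (adjusted p = 2.54e-06). The regulatory subunit Pik3r3 (1.63 and 2.65) and the catalytic subunit Pik3cb (1.46 and 1.87) were higher in both. Between the epithelial classes 6 genes were higher in ciliated cells, led by Inpp4b (1.96), Pik3r3 (1.13) and Pik3r2 (1.04), and 4 lower, led by Pik3cg (-1.35), Pik3r1 (-0.94) and Pik3ip1 (-0.66). Inpp4b did not pass the filter in the high-Malat1 clusters, and Pik3ip1 was not called there.

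Myc was highest outside the 2 main epithelial classes. Distal fibroblasts held 27.6, 21.6 and 27.1 CPM (25.4 ± 3.30, SD, n = 3), non-ciliated cells 8.97, 6.08 and 13.8 CPM (9.63 ± 3.92) and ciliated cells 4.00, 3.57 and 11.3 CPM (6.29 ± 4.35). Both epithelial classes lay under all fibroblast libraries and overlapped each other, with distal 3 the highest library in both. The log2 difference from fibroblasts was -1.37 ± 0.21 in non-ciliated cells (adjusted p = 2.78e-05) and -2.24 ± 0.31 in ciliated cells (adjusted p = 0.000226). Ciliated over non-ciliated cells gave -0.87 ± 0.29 (adjusted p = 0.0105), a call lost with DESeq2 (adjusted p = 0.0712), with predicted doublets kept (-0.53, adjusted p = 0.0535), without distal 1 and under 2 further alternatives. Pooled distal pericytes held 55.9 CPM and smooth muscle 32 CPM. After thinning, 2.61% of fibroblasts, 0.744% of non-ciliated and 0.547% of ciliated cells had a Myc UMI (7.80%, 5.03% and 3.07% before).

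The 13 partners and rivals of Myc gave 2 higher and 5 lower of 11 tested in non-ciliated cells over fibroblasts, 2 and 4 in ciliated cells over fibroblasts and 3 and 2 between the epithelial classes (medians -0.39, -0.56 and -0.02). Mlxip, Mxi1 and Mga were higher (1.62, 1.08 and 0.83) and Mlx and Max lower (-0.89 and -0.88) in ciliated than in non-ciliated cells, the call of Mlx being lost in the high-Malat1 clusters. Mycl, a second Myc family gene, was the reverse of Myc. It stood at 11.8, 15.9 and 15.6 CPM in non-ciliated cells and 9.46, 15.8 and 27.5 CPM in ciliated cells, against 0.133, 0.0832 and 1.14 CPM in fibroblasts (log2 5.35 ± 0.44, adjusted p = 3.15e-08, and 5.19 ± 0.45, adjusted p = 1.36e-05). Of 18 genes that Myc is known to drive, non-ciliated cells were higher for 3 (Ldha 2.21, Odc1 2.16, Bop1 0.72, the last not called in the high-Malat1 clusters) and lower for 8, led by Fbl (-1.83), Gnl3 (-1.04) and Srm (-0.77). Ciliated cells were higher than fibroblasts for 1, Odc1 (1.69), and lower for 11, led by Fbl (-2.28), Srm (-2.14) and Gnl3 (-1.75). Against non-ciliated cells they were higher for 1, Rrp12 (1.44), and lower for 6, led by Ldha (-1.96), Srm (-1.18) and Npm1 (-1.18). The medians were -0.42, -0.77 and -0.31.

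Ccne1 had 80 UMIs in 75 cells and passed the filter in no comparison. Distal non-ciliated cells held 2, 4 and 3 UMIs (0.224, 0.737 and 0.477 CPM), ciliated cells 1, 0 and 4 UMIs (0.364, 0 and 0.655 CPM, where the 0 allows up to 1.53 CPM) and fibroblasts 7, 23 and 7 UMIs (0.932, 1.91 and 1.14 CPM). Every fibroblast library lay above every library of both epithelial classes. The limit for the 0 in ciliated distal 2 lies under the fibroblasts of distal 2 but above those of distal 1 and 3. The epithelial values rest on 0 to 4 UMIs per library and no test was made, so the order is given as a description. Of 16 genes of cyclin E and Cdk2 control, non-ciliated cells were lower than fibroblasts for 8 of 14 tested and higher for 1, Cks1b (1.04), with a median of -0.71. Cdkn1c, a Cdk inhibitor, was among the lower (-2.96, and -4.56 in ciliated cells), with Cks2 (-3.69) and Ccna2 (-2.24). Ciliated cells were higher than non-ciliated cells for E2f1 (1.83), Skp2 (1.66) and Fbxw7 (1.06) and 1 other gene of 11 tested, and lower for Cks1b (-2.18), Cdk2 (-1.44) and Cdkn1c (-1.39).

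**Figure D2:**
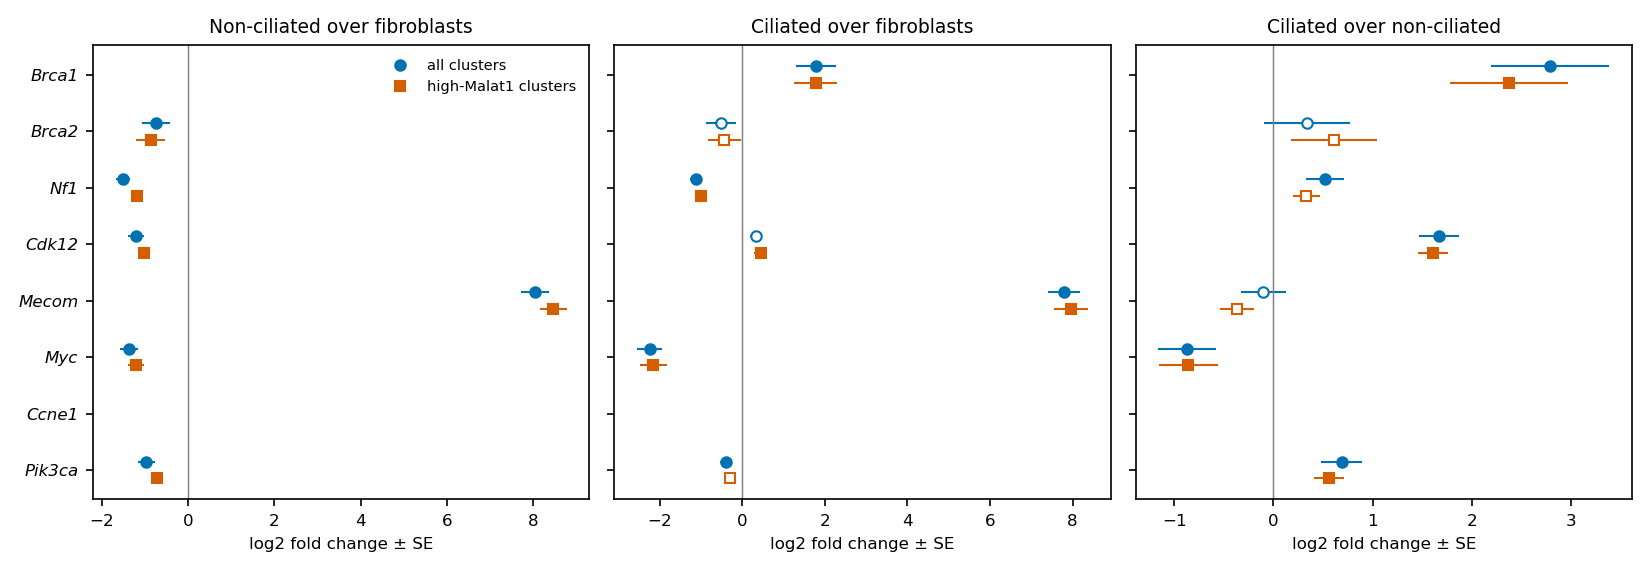
Log2 differences between classes for the members, with SE bars, in the 3 class comparisons over the distal libraries. Filled symbols passed an adjusted p of 0.05, blue circles use all clusters and orange squares the high-Malat1 clusters; Mecom lies near 8 in both comparisons with fibroblasts, and Cdk12 and Brca1 lie to the ciliated side within the epithelium.

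Within the classes, 5 members stood higher where the clusters held more Malat1, as a description with no test. Pooled over distal libraries, Mecom was 585 CPM in high-Malat1 and 23.3 CPM in the other non-ciliated cells, and 497 and 34.6 CPM in ciliated cells. Cdk12 went the same way (41.0 and 17.7 CPM in non-ciliated, 137 and 41.3 CPM in ciliated cells), as did Nf1 (60.2 and 14.3, 83.6 and 22.1 CPM), Myc (12.0 and 4.67, 8.88 and 2.21 CPM) and Pik3ca (28.1 and 10.6, 45.1 and 18.4 CPM). Brca2 in non-ciliated cells was at 2.39 CPM in the high-Malat1 clusters and 2.64 CPM in the rest, and in ciliated cells at 3.81 and 1.47 CPM (2 UMIs). Brca1 in non-ciliated cells had all its 11 UMIs in the high-Malat1 clusters (0.774 CPM, where the 0 in the rest allows up to 0.467 CPM), and in ciliated cells it was at 3.91 and 2.95 CPM, the latter from 4 UMIs. Ccne1 in non-ciliated cells was at 0.211 and 0.933 CPM, from 3 and 6 UMIs. In the high-Malat1 clusters alone, the called members kept their direction in all 3 class comparisons, with Nf1 (0.33) in the epithelial comparison and Pik3ca (-0.30) in ciliated cells over fibroblasts no longer called. There 4 of 7, 6 of 6 and 5 of 7 tested members were called (ciliated over non-ciliated cells, then each class over fibroblasts), where 56.5%, 69.9% and 68.8% of all genes were.

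Among clusters of at least 50 distal cells, described here without a test, the ciliated cluster E5, led by Rgs22 and Rgs7, had the most Cdk12: 185, 223 and 194 CPM in distal 1, 2 and 3. The ciliated clusters E8 (154, 107 and 130 CPM) and E9 (127, 69.8 and 108 CPM) followed, and the non-ciliated cluster E1 held 39.1, 42.8 and 43.5 CPM. In each library E5 was above E8 and E8 above E9. Mecom ran otherwise: E5 held 366, 371 and 365 CPM, under E8 (629, 479 and 520 CPM) and E9 (515, 493 and 550 CPM) in every library, and E1 was at 618, 497 and 706 CPM. Brca1 was at 6.13, 6.71 and 4.00 CPM in E5 and 7.47, 4.48 and 2.87 CPM in E8, from 2 to 7 UMIs per library, so that E5 and E8 overlapped. Over all libraries, Malat1 in E5, E8 and E9 ran in the order of Cdk12, at 14920, 9045 and 6037 CPM, with 7850 CPM in E1. Median depth in E5, E8 and E9 ran in the reverse order, at 2910, 4578 and 15840 UMIs. The part of either in the Cdk12 order was not tested.

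Myc had its highest epithelial levels in E6 and in the non-ciliated cluster E10, led by Slc6a2 and Galntl6. E10 held 26.8, 26.5 and 24.0 CPM, and E1 9.32, 1.51 and 13.3 CPM. E6 held 47.4, 6.83 and 31.1 CPM, from 72, 3 and 86 UMIs, so its level in distal 2 rests on 3 UMIs. The ciliated clusters differed too: E9 held 22.3, 3.10 and 17.2 CPM of Myc, while E5 had 2 UMIs in all (0, 0 and 2.00 CPM, where the 0s allow up to 3.06 and 5.04 CPM). E6 was also high in Mecom (553, 503 and 610 CPM) and, for Cdk12, close to the non-ciliated clusters (46.1, 68.3 and 46.3 CPM).

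**Figure D3:**
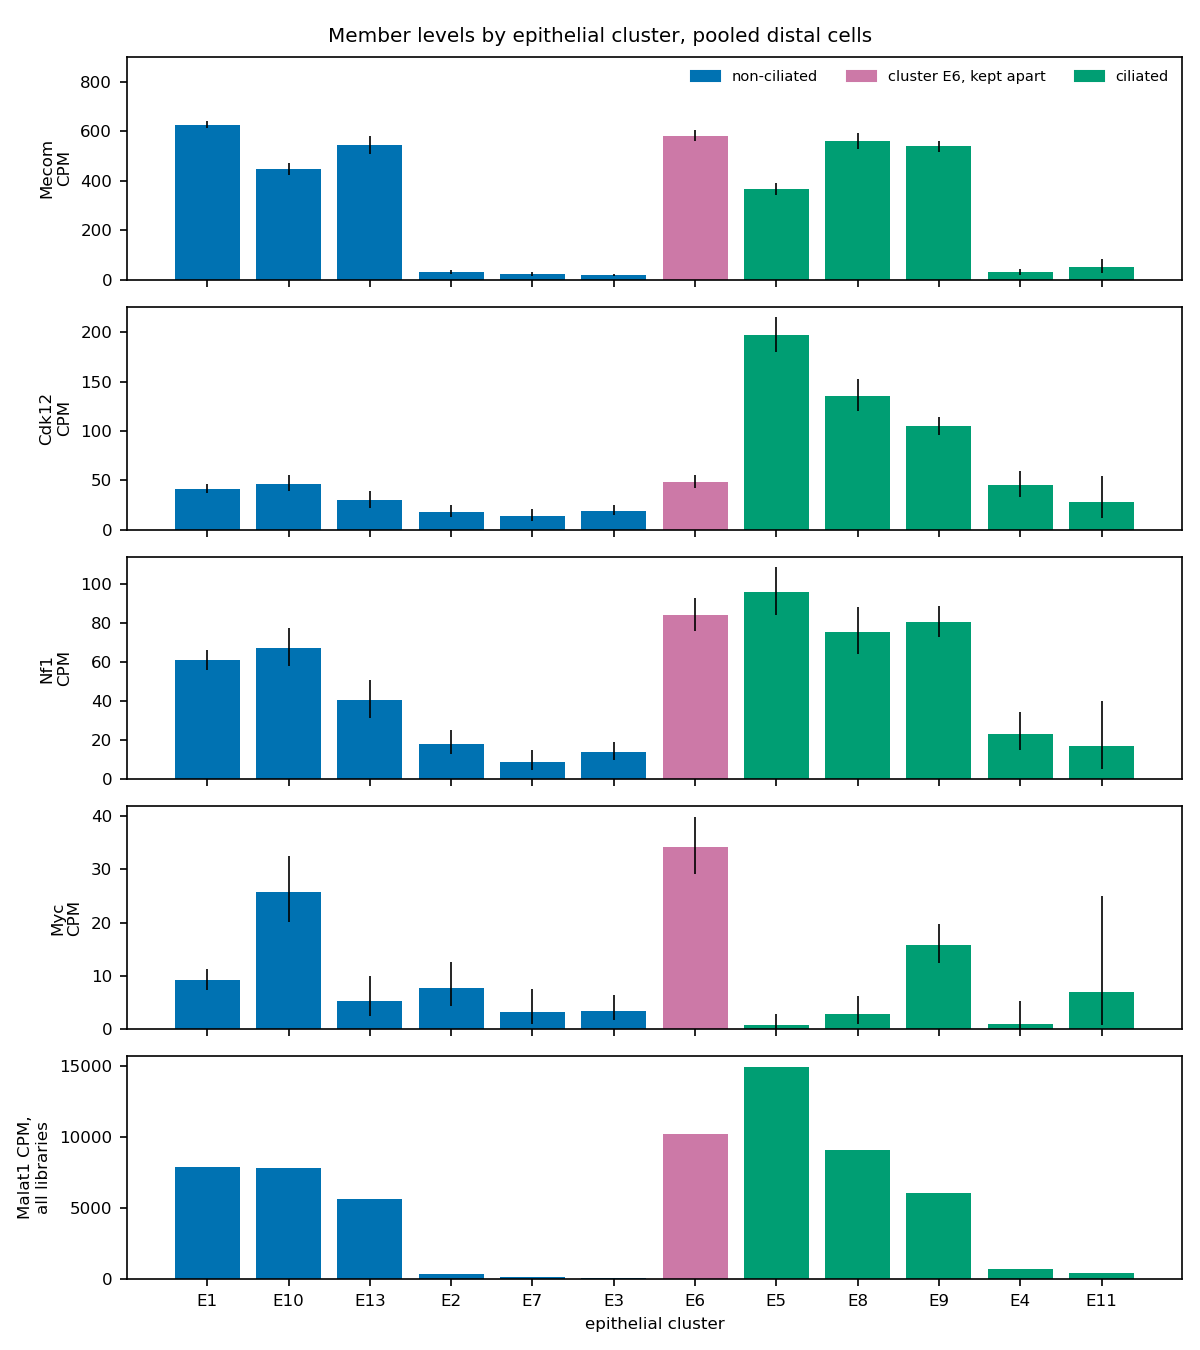
Pooled distal levels of Mecom, Cdk12, Nf1 and Myc in epithelial clusters of at least 50 distal cells, as bars in CPM with exact Poisson intervals for counting error only, and Malat1 in CPM over all libraries for the same clusters. Cdk12 is tallest in E5, Myc in E6 and E10, and Mecom is low in each cluster with low Malat1.

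Brca1 and Ccne1 were set against transcripts of dividing cells, as a description with no test. Of the distal fibroblasts, 98 cells had at least 3 UMIs of 20 proliferation genes and 6719 did not; the former were deeper (median 5333 against 3463 UMIs). Brca1 was at 33.3 CPM in the former (20 UMIs; exact Poisson 95% interval 20.3 to 51.4) and at 0.239 CPM in the latter (6 UMIs), so 20 of the 26 Brca1 UMIs of distal fibroblasts lay in these few cells. By library it was 16.3, 34.5 and 49.6 CPM. With a cut of 2 UMIs the level was 10.1 CPM. Ccne1 was at 16.7 CPM (10 UMIs, 7.99 to 30.6) against 1.08 CPM, with 0 (interval up to 30.0), 18.6 and 29.8 CPM by library. Brca2 was at 8.33 CPM (5 UMIs, 2.70 to 19.4) against 4.07 CPM, an interval that holds the level of the other cells.

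In ciliated cells Brca1 was at like levels with and without proliferation transcripts: 3.66 CPM in the 78 cells with them (5 UMIs; exact Poisson 95% interval 1.19 to 8.54) and 3.81 CPM in the 2199 without (36 UMIs, 2.67 to 5.27). In non-ciliated cells it was 2.79 CPM in 112 cells (4 UMIs, 0.760 to 7.14) and 0.365 CPM in 3152 (7 UMIs, 0.147 to 0.751), higher in the former as in fibroblasts but from 11 UMIs in all. The cut is a fixed number of UMIs, so it also picks deep cells. By the counts and levels given, cells past it were deeper on average than the others in both epithelial classes. How many of them were dividing was not tested. Across all cells of a class, 11 of 18 proliferation genes tested were lower in non-ciliated cells than in fibroblasts and none higher, Mki67 (-2.17 ± 0.38, adjusted p = 0.000121), Cdk1 (-1.85) and Cenpf (-1.63) among them, the call of Cenpf being lost in the high-Malat1 clusters. In ciliated cells 10 of 19 were lower and 2, Ccnb1 and Rrm2, higher. The call of Ccnb1 was lost in 3 of 6 alternatives and that of Rrm2 in 6 of 11, and in the high-Malat1 clusters none of 17 tested was higher and 11 were lower. Between the epithelial classes 4 of 18 were higher in ciliated cells, led by Rrm2 (2.21), Cdk1 (1.58) and Ccnb1 (1.54), and 2 lower, Mcm5 (-1.83) and Tyms (-1.31). In the high-Malat1 clusters these counts were 1 and 1 of only 9 genes that passed the filter, and Rrm2, Ccnb1 and Mcm5 were not among the 9.

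No member was called between proximal and distal libraries. In non-ciliated cells 0 of 5 tested members passed an adjusted p of 0.05 with edgeR (2.53% of 12396 genes did), and 0 of 5 were under an unadjusted p of 0.05. In ciliated cells it was 0 of 6 (0.601% of 12973 genes), with Cdk12 under 0.05 unadjusted (Cdk12 and Myc in DESeq2), and in fibroblasts 0 of 5 (2.99% of 13642 genes), with none. DESeq2 also called 0 members in each, with none under 0.05 unadjusted outside the ciliated cells. With this few calls over all genes, a count of 0 among so few members reads as no more than the background. In simulated counts the region test of non-ciliated cells recovered 0.971% of changes of 1 on the log2 scale and 40.9% of changes of 2. A missing call there does not show equal levels.

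Mecom in non-ciliated cells shows how far the proximal libraries lay apart. It was 394, 244 and 576 CPM in distal 1, 2 and 3, and 47.0, 1332 and 1016 CPM in proximal 2, 3 and 4. Proximal 2, whose non-ciliated cells held little Malat1, lay under all distal libraries, and proximal 3 and 4 above them. The log2 difference, proximal over distal, was 0.69 ± 0.85 (adjusted p = 0.746). Without proximal 2 it was 1.19 (adjusted p = 0.0143). In the high-Malat1 clusters, where proximal 2 had 3 cells and was left out of the fit, the levels were 578, 466 and 652 CPM in distal against 1355 and 1085 CPM in proximal libraries. The difference there was 0.86 ± 0.22 (adjusted p = 0.0148; 27.8% of 12955 genes were called), with both proximal libraries above all 3 distal ones. The class lay in different clusters by region. Of the 83 and 107 such cells of proximal 3 and 4, 82 and 81 were in cluster E12, led by Penk and Serpina1e, which held 7 distal cells, whereas the distal cells lay mostly in E1, E10 and E13. The 7 distal E12 cells, all of distal 1, held 1134 CPM of Mecom, against 1358 and 1141 CPM in E12 of proximal 3 and 4. In E1, the 26 cells of proximal 4 held 841 CPM (exact Poisson 95% interval 678 to 1031), against 618, 497 and 706 CPM in distal libraries. Whether the Mecom difference is one of region or of cluster cannot be told apart. Malat1 in those cells was 17284 and 12747 CPM in proximal 3 and 4 against 6229 to 8239 CPM in the distal libraries, and its part in the Mecom difference was not tested.

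The other members rested on few proximal UMIs. Cdk12 in ciliated cells was 28.3 and 68.9 CPM in proximal 2 and 4, from 2 and 8 UMIs, against 117 to 145 CPM in distal libraries (log2 -1.44 ± 0.49, adjusted p = 0.194). Proximal 3 had 7 ciliated cells and was not in that fit. This class too lay in different clusters: 22 of the 24 proximal 2 cells were in the low-Malat1 cluster E11 and 30 of the 34 proximal 4 cells in E8, while E5, the cluster highest in Cdk12, had 674 distal and 0 proximal cells. Within E8, proximal 4 held 85.5 CPM from 8 UMIs (36.9 to 169), against 154, 107 and 130 CPM in distal libraries. Myc in non-ciliated cells was 1.47, 8.71 and 6.35 CPM in proximal 2, 3 and 4, from 1, 2 and 4 UMIs (-1.18 ± 0.61, adjusted p = 0.393). In fibroblasts it was 17.6, 21.6 and 48.6 CPM (0.07 ± 0.33, adjusted p = 0.957). Of the genes on the lists, 1 was called between regions in ciliated cells, Cdkn1c (3.26, adjusted p = 0.0415), and 2 in fibroblasts, Eif4e (-1.65, adjusted p = 0.0315) and Fancc (1.47, adjusted p = 0.0416); each of these calls was lost under 6 or 7 of 11 or 13 alternatives. Fibroblasts too lay in different clusters by region, as given below for Fancc and Cdk19. The test of whether the region difference in non-ciliated cells differed from that in fibroblasts gave -1.52 ± 0.62 for Myc (edgeR, adjusted p = 0.352).

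In that interaction 0 of 6 tested members were called with edgeR and 0 with DESeq2, with only Myc under an unadjusted p of 0.05 in edgeR and none in DESeq2. It called 1.47% of 16771 genes, 86 higher and 160 lower. The split was 140 and 153 with RLE scaling and 143 and 144 with DESeq2, and the median of all genes moved from -0.25 to -0.01 under both, so the values above carry a shift of about that size.

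**Figure D4:**
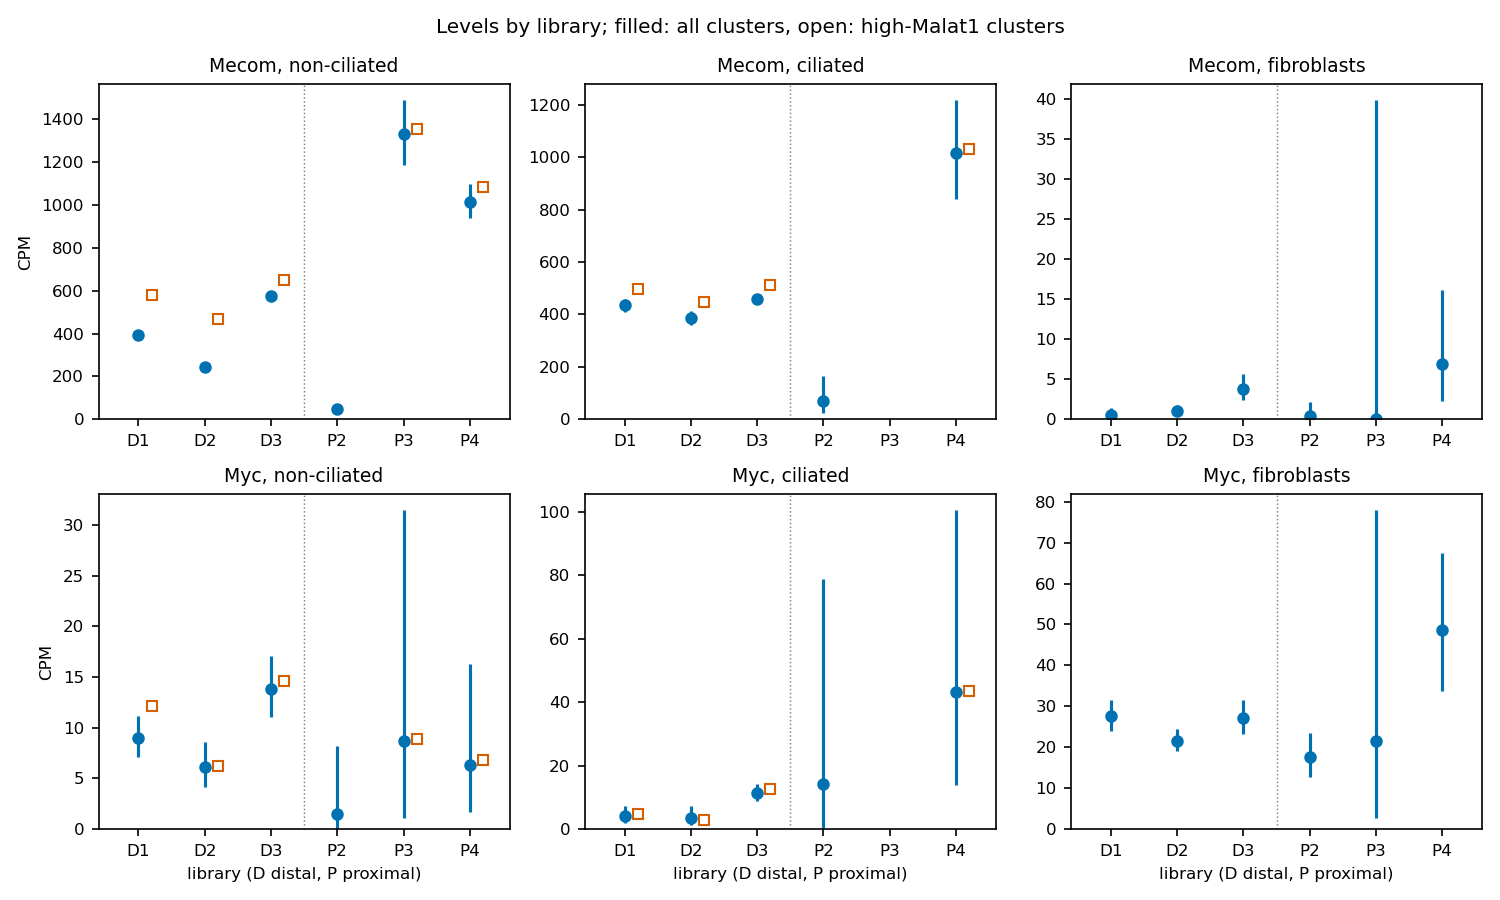
Mecom and Myc per library by region in non-ciliated, ciliated and fibroblast cells, in CPM with exact Poisson intervals for counting error only, for libraries with at least 10 cells of the class; open squares are the high-Malat1 clusters. For Mecom in non-ciliated cells proximal 2 (47.0 CPM) lies under, and proximal 3 and 4 (1332 and 1016 CPM) over, the distal libraries.

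Genes whose level ran most like a member were found over 28 sums of cell class and distal library, among 14458 genes, as a description. The sums share libraries and cells of neighbouring classes. Mecom ran most like Kcnq1 (Pearson r 0.941), Sox17 (0.925) and Pllp (0.916). Cdk12 ran most like Btrc (0.858), Nsd1 and Ints7, Nf1 like Arhgap23 (0.864), Cdr2l and Sbf2, and Pik3ca like Ubr1 (0.832), Atxn7 and Rock2. Myc ran most like Gm52120 (0.806), Slc12a4 and Ccdc141, and Brca2 like Zfp410 (0.84), Rmdn2 and Actr5. Brca1 and Ccne1 had fewer than 200 UMIs over these sums and were not set beside other genes.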

How the data were processed

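Cell Ranger filtered UMI counts of 6 libraries were deposited as gene by cell count matrices, which the authors made with Cell Ranger (6.1.2 and build mm39 per the submitters' processing notes, 7.0.0 per the file headers). Counting of introns and strand is not given in the sources used here. Cells with at least 500 UMIs and 250 genes and at most 20% mitochondrial UMIs were kept, and predicted doublets (1 to 416 barcodes per library) were removed. Scanpy 1.11.5 clustered the cells on 2000 variable genes without members and list genes (30 components, 15 neighbours, resolution 1), the epithelium again on 20 components. Clusters were named from marker lists. The naming rule was revised once after its first result had been seen.

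The counts of each class were added up in each library and tested with edgeR 4.0.16 (quasi-likelihood, TMM, filterByExpr, Benjamini-Hochberg adjustment over all genes, threshold 0.05) in 7 comparisons. Class comparisons used the distal libraries with library as a block, and region comparisons used libraries with at least 10 cells of the class. The script was tested on simulated data for 2 of the comparisons. For ciliated over non-ciliated cells it recovered 71.1% of changes of 1 on the log2 scale and 99.1% of changes of 2. For proximal over distal non-ciliated cells it recovered 0.971% and 40.9%. In both, changes were put only into genes above a minimum mean count, and all genes were drawn with the same dispersion. The recoveries therefore do not apply to sparse members such as Brca1 and Ccne1. Alternatives were DESeq2 1.42.0, RLE scaling, no filter, doublets kept, thinned distal sums, other blocks, other stroma and each library left out. CPM intervals are exact Poisson intervals at 95% and, like the limit of 3 counts for a 0, cover counting error only.

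The members and lists were chosen with earlier results of these data known. Named are all 8 members, up to 3 called genes of each list per direction with the largest fold, and the 3 genes most correlated with each member by log2(CPM + 5) over sums of at least 20 cells. The split by Malat1 (at least 2000 CPM per cluster), the adding of cluster E6, and the clusters, cells and members singled out in the accounts of subtypes, proliferation and regions were chosen after their values had been seen. The promoter windows come from RefSeq. All 8 members but Myc had one. A few list genes that this rule picks are not reported here.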

Additional observations from a re-analysis of the deposited data

Results flagged for a closer look

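No member was flagged. Of the genes on the lists around the members, 2 had a difference between proximal and distal libraries that itself differed between non-ciliated cells and fibroblasts by the interaction test of edgeR. Fancc, a Fanconi core gene on the list around Brca1 and Brca2, gave -1.84 on the log2 scale (SE 0.36, adjusted p = 0.0203). It stood at 34.9, 27.8 and 31.8 CPM in distal and 20.6, 43.5 and 41.3 CPM in proximal non-ciliated cells, and at 20.8, 16.6 and 14.1 CPM in distal and 28.9, 86.4 and 74.9 CPM in proximal fibroblasts. Cdk19, a Mediator kinase on the list around Cdk12, gave -1.81 (SE 0.42, adjusted p = 0.0441). It stood at 121, 85.5 and 126 CPM in distal and 20.6, 131 and 132 CPM in proximal non-ciliated cells, and at 38.1, 24.0 and 33.1 CPM in distal and 32.8, 86.4 and 86.0 CPM in proximal fibroblasts. In both genes proximal 2 lay under the other proximal libraries in each class. The 86.4 CPM of proximal 3 fibroblasts is 8 UMIs. Each class lay in different clusters by region. The fibroblast cluster led by Apod and Sgcz held 64 of 130 and 174 of 612 fibroblasts of proximal 3 and 4. It held 9, 5 and 0 cells of distal 1, 2 and 3. Of the non-ciliated cells of proximal 3 and 4, 82 of 89 and 81 of 146 were in E12. Whether the differences of Fancc and Cdk19 are of region or of cluster cannot be told apart. Both calls held in the high-Malat1 clusters (-1.73, adjusted p = 0.00638, and -1.50, adjusted p = 0.00574), with DESeq2 and without proximal 2 (-1.89 and -1.31). They were lost without distal 1 (adjusted p = 0.205 for Fancc and 0.305 for Cdk19), distal 3 (0.18 and 0.294), proximal 3 (0.133 and 0.164) or proximal 4 (0.301 and 0.137), and that of Cdk19 also without distal 2 (0.126).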

How the results depend on the processing

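Of 489 values of members under the alternatives, 419 kept their direction and their side of the threshold, 35 reversed, 31 lost a call and 4 gained one; the lost and gained calls are given beside their results. Of 93 counts and levels, 63 stayed within 1.5 times or 1 SD. Named list genes reversed in none of 1673 values, and 121 of these lost a call. Counts of genes called in the class comparisons stayed within 1.5 times. Brca1 in fibroblasts with proliferation transcripts fell from 33.3 to 10.1 CPM with a cut of 2 UMIs.

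Counts of genes called between regions did not hold. In non-ciliated cells 313 became 1341 with DESeq2, 1200 with no filter, 51 with distal sums thinned and 3596 in the high-Malat1 clusters, and 0 to 3502 with each library left out (3502 without proximal 2, 14 without proximal 3, and 2, 0 and 5 without distal 1, 2 and 3). In ciliated cells 78 became 521 with DESeq2, 587 with no filter, 15 thinned and 156 with doublets kept, and 9 to 78 with a library left out (9 without proximal 4, 40 without distal 1). In fibroblasts 408 became 1402 with no filter, 146 thinned, and 46 to 1974 with a library left out (1974 without proximal 2 and 79 without proximal 3; 46, 178 and 102 without distal 1, 2 and 3). The interaction count of 246 became 815 in the high-Malat1 clusters, 564 with no filter, and 36 to 753 with a library left out (753 without proximal 2, 36 without distal 3).

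The reversed values were all of differences not called. In ciliated over non-ciliated cells, leaving out a library gave -0.047 to 0.76 for Brca2 and -0.34 to 0.12 for Mecom. In the region comparison of non-ciliated cells, the high-Malat1 clusters gave 0.0064 for Pik3ca, E6 added gave -0.021 and no filter -0.066 for Nf1, and leaving out a library gave -0.62 to 0.61 for Nf1, -0.56 to 0.20 for Pik3ca and -0.084 to 0.60 for Cdk12. In ciliated cells the high-Malat1 clusters gave 0.40 for Pik3ca, and leaving out a library gave -2.69 to 1.01 for Mecom and -9.81 to 0.50 for Pik3ca, the former where the lone proximal library had 0 Pik3ca UMIs. In fibroblasts no filter gave -0.066 for Myc, and leaving out a library gave -0.47 to 0.47 for Myc, -0.14 to 0.68 for Pik3ca and -0.63 to 0.21 for Brca2. In the interaction Nf1 was 0.14 with DESeq2, 0.20 with RLE scaling, 0.72 in the high-Malat1 clusters and -0.40 to 0.73 with a library left out. Brca2 was 0.84 in the high-Malat1 clusters and -0.61 to 0.45 with a library left out, and Mecom was 0.16 with doublets kept and -1.26 to 0.042 with a library left out. The cause was not tested.

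Distal and proximal libraries share 2 replicate numbers by title and 2, other ones in part, by description, and nothing in the labels says that a number marks the same mice. Deviations from the group means correlated for distal 2 and proximal 2 (r = 0.702 in non-ciliated cells, 0.519 in fibroblasts) and for distal 3 with proximal 3 (0.493, 0.205) and proximal 4 (0.606, 0.0606). Other pairs ran opposite in non-ciliated cells, distal 3 with proximal 2 (-0.683) and distal 2 with proximal 4 (-0.643). Deviations over 3 libraries sum to 0, so positive and negative values are partly forced and do not tell whether mice were shared. Distal 2 and proximal 2 also had 668 of 841 and 281 of 284 non-ciliated cells in low-Malat1 clusters, whose part was not tested. With the title number as a replicate block, the region differences reversed for Mecom (-0.78), Nf1 (-0.67) and Cdk12 (-0.17) in non-ciliated cells and Myc (-0.37) in fibroblasts. With the description number as the block they reversed for Mecom (-0.90) and Nf1 (-0.18) in non-ciliated cells and Mecom (-0.61) in ciliated cells. The title block could not be fitted in ciliated cells, which left no residual degrees of freedom. No member was called with either block, and 366 and 435 genes (description, title) in non-ciliated cells, 517 and 550 in fibroblasts and 63 (description) in ciliated cells were. Depth limits Brca1, Brca2 and Ccne1, and every member in proximal libraries, whose non-ciliated sums held 229764 to 681129 UMIs.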
